A study of Mus musculus with 12 samples.

Results

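Ribosome-protected fragments, or footprints, are the short pieces of mRNA left when nuclease digests everything that a ribosome does not cover. They were compared between B16 mouse melanoma cells carrying an shRNA against Elp3 and B16 cells carrying a control shRNA. The genes described are all rows of the deposited count table that passed a count filter in the 6 footprint libraries, 11343 of 24421 genes. Of these, 11055 are protein coding in RefSeq. Both groups were B16 cells transduced with an shRNA lentivirus and grown in DMEM with serum, antibiotics and glutamine. The control hairpin had no relevant target (shCTL in the labels, shControl here), and the other hairpin was sh309 against Elp3 (shElp3 here). There were 3 libraries per group, with the letters A, B and C in the labels, and each is tied by its label to a total RNA library of the same hairpin and letter. Only 1 hairpin against Elp3 was used, so the loss of Elp3 and other effects of that hairpin cannot be told apart. Nothing in the labels says that the letters are separate transductions, so the p-values measure only the spread between these libraries, which may be technical.

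Elongator is the complex that takes the opening step in the chemical modification of the wobble uridine in the anticodons of a set of tRNAs, and Elp3 is its catalytic subunit. Modified wobble uridines help those tRNAs to read their codons, and in melanoma the enzymes of this route have been studied for their part in the translation of particular mRNAs. The number of footprints on a gene depends both on how much of its mRNA is present and on how many ribosomes each mRNA carries, so a footprint difference by itself does not separate them. In bulk libraries fewer cells of a type and less RNA per cell cannot be told apart either.

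Total counts ran from 7619269 to 10998570 per footprint library. The library shControl A stood apart from the rest of its group. Across the tested genes, which are not independent replicates, its Spearman correlation was 0.942 with shControl B and 0.948 with shControl C, against 0.992 between shControl B and C and 0.9805 to 0.991 among the shElp3 libraries. With the 3 shElp3 libraries it correlated at 0.940 to 0.955, about as closely as with its own group. Counts of called members are therefore given for the gene lists with all 6 libraries and also without shControl A. That second fit keeps only shControl B and C, the closest control pair, so its larger counts are not independent support. Leaving out any other library gave smaller counts, stated below for all genes, the division genes and the cholesterol enzymes. The labelled cell type was checked by its pigment genes: the 15 tested melanosome genes summed to 23840 to 46730 counts-per-million (CPM) units in the shControl libraries and 19350 to 28680 CPM in the shElp3 libraries. Of the markers of other cell types, 2 of 15 macrophage and leukocyte genes passed the filter, 4 of 10 fibroblast genes, 1 of 10 endothelial genes and 0 of 10 epithelial genes. The members of those lists in the table summed to 23.9 to 77.3 and 15.9 to 33.5 CPM (macrophage and leukocyte), 104 to 111 and 126 to 175 CPM (fibroblast), 2.88 to 4.20 and 2.64 to 6.65 CPM (endothelial), and 0.456 to 0.840 and 0.377 to 0.618 CPM (epithelial) in the control and shElp3 libraries. In all 6 libraries 3, 4, 3 and 2 members of these lists were at 0.

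Footprints on 548 genes (4.83% of those tested) differed between the groups by edgeR's quasi-likelihood test at a Benjamini-Hochberg adjusted p under 0.05, the rule for a called gene throughout. In shElp3 cells 201 genes (1.77%) were higher and 347 (3.06%) lower. The median log2 fold change was 1.14 for the genes called higher, -1.34 for those called lower and -0.01 over all tested genes. At least 2-fold increases made up 117 of the 201 and at least 2-fold decreases 226 of the 347. For all 548 the 3 libraries of one group lay above the 3 of the other, a pattern that 15.4% of all tested genes showed upwards and 15.3% downwards. Upper-quartile scaling changed the balance to 277 higher and 270 lower, with the median of all genes at 0.07. The count depended on single libraries. Without shControl A it was 2856 (24.8% of genes, 10.7% higher and 14.0% lower) and held all 548 in the same direction, but it was 52 when shControl B was left out, 59 when shControl C was, and 0 when any 1 shElp3 library was. In those last 3 fits 1807, 1734 and 2038 genes had an unadjusted p under 0.05, and the smallest adjusted p was 0.09996, 0.0992 and 0.0724. DESeq2 on all 6 libraries called 1308 genes (11.5%), again with all 548 among them.

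**Figure D1:**
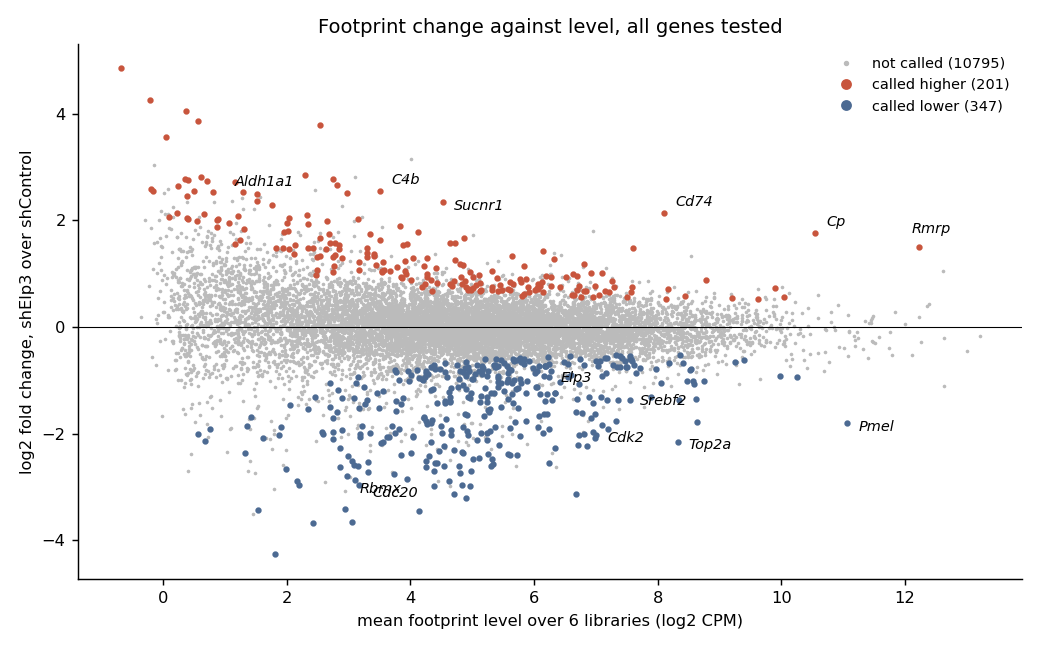
Log2 fold change of footprints, shElp3 over shControl (vertical axis), against the mean log2 CPM of the 6 libraries (horizontal axis), with each of the 11343 tested genes as a point and the 201 genes called higher and 347 called lower in colour. Called genes lie over most of the range of abundance, and the larger decreases outnumber the larger increases.

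Elp3 itself was examined first, as a check of the labels. Elp3 (chromosome 14, 65530446 to 65593112, mm10) fell from 102, 96.1 and 118 CPM to 48.8, 60.5 and 55.8 CPM (log2 fold change -0.93 with SE 0.15, adjusted p = 0.0249 by edgeR), which leaves 52.3% of the control level. The 3 shElp3 libraries all lay below the lowest control library. Leaving out a library other than shControl A ended that call: the edgeR adjusted p became 0.0694 without shControl B and 0.0779 without shControl C, and 0.136, 0.134 and 0.110 without the shElp3 libraries in turn, at log2 fold changes between -1.005 and -0.845. None of the other 5 tested subunits of Elongator was called. Without shControl A 2 of the 6 subunits were called lower, Elp3 among them. The accessory subunit Elp6 had 15.6, 12.7 and 13.8 CPM in the control libraries and 10.2, 10.9 and 10.4 CPM in the shElp3 libraries (log2 fold change -0.41 with SE 0.18, adjusted p = 0.208 by edgeR), with the groups apart. Elp2 and Elp5 lay at -0.13 and 0.18, and Elp4 was not called either.

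**Figure D2:**
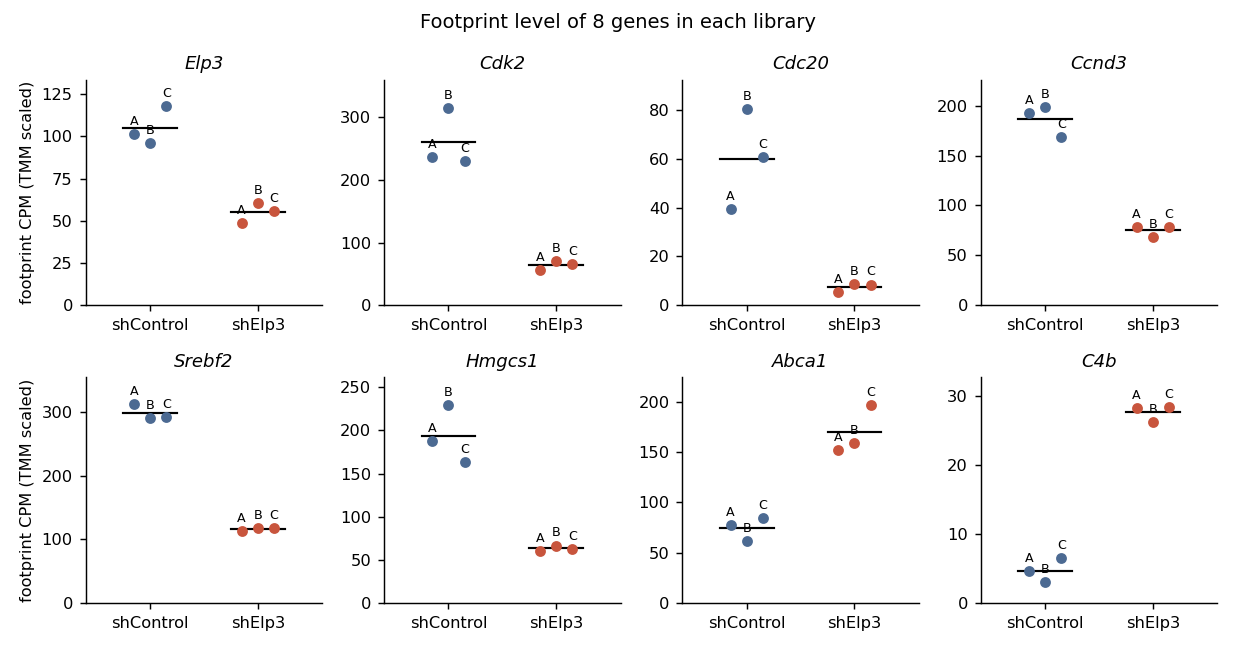
Footprint abundance in CPM scaled by TMM (vertical axes, each from 0) of Elp3, Cdk2, Cdc20, Ccnd3, Srebf2, Hmgcs1, Abca1 and C4b in each of the 6 libraries, with points marked by library letter and bars at the mean of 3. The groups do not overlap in any of the 8 panels: Abca1 and C4b are higher in shElp3 cells and the other 6 genes lower.

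The broadest change was in genes of cell division. These genes drive the cell through DNA replication and mitosis, and many of them are made mainly in the cell cycle phase in which they act. In 15 lists that cover cyclins and kinases, the mitotic machinery, replication, repair and histones, 257 genes were tested. Of these 112 fell, 1 rose and 144 were not called, where 3.06% of all genes were lower and 1.77% higher. The median log2 fold change was -1.68 against -0.01 over all genes, and 248 of 257 values lay below 0. Without shControl A 230 of 260 fell, against 14.0% of all genes. Without shControl B or C 19 fell in each case, and without any 1 shElp3 library 0 were called. In 219 of the 257 genes shControl A was the lowest of the 3 control libraries, against 5073 of all 11343. What sets that control library apart was not tested.

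Among the division lists, the genes that open mitosis and take the cell through its exit had the highest share called (83.3%). Their median was not the lowest, which was -2.37 for the mitotic kinesins. Of 18 mitotic cyclins and regulators of the kinase CDK1, 15 fell and 0 rose (median -1.81), and without shControl A 17 fell. In each run of 3 values the libraries are in the order A, B and C, with the shControl values first. Cdk1, the kinase that starts mitosis, fell from 154, 357 and 294 CPM to 56.5, 84.1 and 84.5 CPM (log2 fold change -1.84 with SE 0.32, adjusted p = 0.0275 by edgeR). Its cyclin partners Ccnb1 and Ccnb2 fell (-2.41 and -2.46). Cks2, a small subunit that binds CDK1, fell from 103, 126 and 98.2 CPM to 27.5, 37.0 and 31.0 CPM (log2 fold change -1.77 with SE 0.17, adjusted p = 0.0124 by edgeR). Wee1, the kinase that holds CDK1 inactive, and Cdc25b, the phosphatase that activates it, both fell (-1.15 and -1.77). The anaphase-promoting complex takes the cell out of mitosis, and its coactivator Cdc20 fell from 39.2, 80.2 and 60.6 CPM to 5.27, 8.76 and 8.47 CPM (log2 fold change -2.99 with SE 0.31, adjusted p = 0.0124 by edgeR). Ube2c, the ubiquitin-conjugating enzyme that serves it, fell from 26.9, 67.1 and 51.4 CPM to 4.89, 11.6 and 10.3 CPM (log2 fold change -2.43 with SE 0.41, adjusted p = 0.0266 by edgeR). Even the highest shElp3 value of these genes lay below the lowest control value, and for Ccnb1, Ccnb2, Cdk1, Cdc20, Cdc25b and Ube2c shControl A was the lowest control, at less of a distance from shElp3 than the other controls. Pttg1, the securin that guards separase, was not called, with 66.4, 42.5 and 44.3 CPM in the control libraries and 62.6, 57.3 and 49.6 CPM in the shElp3 libraries (log2 fold change 0.15 with SE 0.20, adjusted p = 0.704 by edgeR) and overlapping groups. Cdk1, Ccnb1 and Ccnb2 lie outside the rule for named genes and were named after their values were seen.

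Promoters of division genes often carry CCAAT boxes near a cell cycle element. The 3 promoters below were picked from called division genes in which both motifs lie in the last 120 bases. The presence of both motifs there was fixed by that choice and is not a result. The last 120 bases before the RefSeq start are shown, read 5′ to 3′ on the gene's strand, with 2 motifs in capitals. The CCAAT box reads ATTGG on the other strand. The cell cycle element is TTTGAA (which reads TTCAAA on the other strand) or a palindromic form, of which TTTAAA was searched and likewise TTCGAA. The build is GRCm38.p6, and the windows are chr4:118437344-118437463 (minus strand), chr2:164769809-164769928 (plus strand) and chr7:122159315-122159434 (plus strand).
Cdc20: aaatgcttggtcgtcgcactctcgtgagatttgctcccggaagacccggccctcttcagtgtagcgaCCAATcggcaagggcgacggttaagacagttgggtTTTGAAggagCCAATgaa
Ube2c: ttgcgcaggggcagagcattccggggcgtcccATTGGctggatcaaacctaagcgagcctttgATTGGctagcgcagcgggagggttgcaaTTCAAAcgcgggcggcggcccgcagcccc
Plk1: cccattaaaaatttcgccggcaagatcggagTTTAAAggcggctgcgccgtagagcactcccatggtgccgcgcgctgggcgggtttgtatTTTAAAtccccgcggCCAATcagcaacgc
In Cdc20 the capital runs start 53 and 8 bases (CCAAT) and 18 bases (element) before the start. In Ube2c the CCAAT runs lie at 88 and 57 and the element at 29, and in Plk1 the CCAAT run lies at 14 and the elements at 89 and 29. Over windows of 250 bases before the start on either strand, CCAAT letters occurred in 41.3% of the promoters of 9143 tested genes with a window, in 58.8% of those called lower, in 36.9% of those called higher and in 64.5% of the division genes. The cell cycle element by itself occurred in 22%, 28.9%, 29.4% and 43.1% of the same sets, so it was about as common in genes called higher as in those called lower. CCAAT together with the element occurred in 8.74%, 20.6%, 7.50% and 31.3%. E2F-like letters (TTTCCCGC, TTTGGCGC or TTTCGCGC, either strand, where overlapping matches count as 1 promoter) occurred in 3.69% of all, 7.94% of those called lower, 3.12% of those called higher and 15.2% of the division genes. A match of letters is a description of the promoter and not a site of binding.

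Behind CDK1 stand the kinases that build the spindle and check it. Of 16 mitotic kinases and their partners 9 fell (median -2.07), and without shControl A 16 did. Plk1, the polo kinase of centrosomes and kinetochores, fell from 26.8, 138 and 110.1 CPM to 5.90, 12.3 and 16.8 CPM (log2 fold change -2.97 with SE 0.61, adjusted p = 0.0398 by edgeR). Bub1b, a kinase of the spindle checkpoint, fell from 62.5, 131 and 102 CPM to 20.7, 30.3 and 35.4 CPM (log2 fold change -1.77 with SE 0.30, adjusted p = 0.0275 by edgeR). In the chromosomal passenger complex, which corrects wrong attachments, Aurkb and Cdca8 fell (-2.47 and -1.95), while Birc5 at -2.09 (adjusted p = 0.0652) was not called. In Plk1 and Bub1b shControl A was the lowest control and lay nearest to the shElp3 group, though above all of it.

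Motors, kinetochores and the spindle moved in the same direction. Of 13 mitotic kinesins 7 fell (median -2.37): Kif20a, needed for cytokinesis, fell from 29.1, 125 and 102 CPM to 5.77, 11.8 and 11.4 CPM (log2 fold change -3.13 with SE 0.54, adjusted p = 0.0275 by edgeR). Kif18a, which shortens kinetochore microtubules, fell from 23.9, 44.1 and 32.9 CPM to 6.28, 8.65 and 9.33 CPM (log2 fold change -2.05 with SE 0.27, adjusted p = 0.0163 by edgeR). Kif11, the motor that separates the spindle poles, had -2.21 and an adjusted p of 0.114. Of 31 kinetochore and centromere proteins 16 fell (median -1.60), among them Ndc80, which holds microtubules in the outer kinetochore (-2.90). Its partner Spc25 showed narrow groups, falling from 86.1, 95.2 and 88.6 CPM to 32.6, 42.9 and 39.0 CPM (log2 fold change -1.24 with SE 0.15, adjusted p = 0.0138 by edgeR). Cenpa, the histone variant that marks centromeres, fell by 2.63. Of 19 spindle and cytokinesis proteins 14 fell (median -2.21), such as Tacc3 on spindle microtubules, from 64.3, 115 and 88.4 CPM to 12.3, 15.9 and 22.9 CPM (log2 fold change -2.39 with SE 0.29, adjusted p = 0.0138 by edgeR), Prc1, the bundler of the central spindle (-2.22), and Racgap1, of the centralspindlin complex (-2.02). Of 8 condensin subunits, which compact mitotic chromosomes, 4 fell: Smc4 fell from 239, 300.3 and 253 CPM to 82.3, 109 and 116 CPM (log2 fold change -1.37 with SE 0.17, adjusted p = 0.0155 by edgeR), and Ncapd2, Ncapg and Ncapg2 fell (-2.02, -1.92 and -1.98). Ncaph2, the least changed of the 8, had a log2 fold change of -0.44 with an adjusted p of 0.126. Without shControl A 13 of the kinesins, 28 of the kinetochore and centromere proteins, 18 of the spindle and cytokinesis proteins and 8 of the condensin subunits were called lower.

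Footprints on the genes of DNA replication were lower too. Of 20 genes of the MCM helicase and its loading 10 fell (median -1.47). Cdc45, which works with the helicase at the fork, fell by 2.32. Gmnn, which keeps the helicase from being loaded again, fell from 41.6, 56.8 and 45.5 CPM to 18.2, 20.9 and 18.9 CPM (log2 fold change -1.31 with SE 0.17, adjusted p = 0.0156 by edgeR). Among helicase subunits Mcm6, named after its value was seen, fell by 1.92, while Mcm2 had a log2 fold change of -1.12 with an adjusted p of 0.0521 and was not called. Of 21 polymerase, primase, clamp and ligase genes 7 fell (median -1.33), among them Pold1, the catalytic subunit of polymerase delta, from 31.6, 82.0 and 69.7 CPM to 15.1, 15.7 and 16.7 CPM (log2 fold change -1.95 with SE 0.33, adjusted p = 0.0266 by edgeR). The sliding clamp Pcna fell by 1.37, and Top2a, which untangles replicated DNA, fell by 2.15. Of 11 genes of deoxynucleotide synthesis 2 fell: Rrm2, the regulatory subunit of ribonucleotide reductase, at -2.23, and Dut, which removes dUTP, from 88.1, 148 and 117 CPM to 43.2, 44.2 and 48.4 CPM (log2 fold change -1.38 with SE 0.20, adjusted p = 0.0197 by edgeR). Tk1 and Tyms, which make thymidylate, had larger or similar differences (-2.99 and -1.98) but wide control groups. Tyms read 3.78, 45.1 and 46.0 CPM in the controls and 5.15, 9.58 and 9.33 CPM in shElp3 cells, so that shControl A lay below all 3 shElp3 libraries, and its adjusted p was 0.164 with that library and 5.18e-05 without it. Of 28 repair and checkpoint genes 9 fell (median -1.86), with the helicase Pif1 at -3.44 and Dtl, a ubiquitin ligase adaptor that acts on PCNA-bound proteins, at -1.99. Leaving out shControl A raised the counts called lower to 18 for the helicase list, 21 for the polymerase list, 8 for deoxynucleotide synthesis, where 1 was higher, and 23 for repair and checkpoints.

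The regulators of the start of the cycle were less uniform. Of 11 G1 cyclins, kinases and RB proteins 3 fell, with a median of -0.42. Without shControl A 7 were lower and 2 higher, where 14.0% and 10.7% of all genes were. Cdk2, the kinase of the G1 to S transition, fell from 237, 315 and 230.5 CPM to 56.0, 71.3 and 65.1 CPM (log2 fold change -2.02 with SE 0.17, adjusted p = 0.0104 by edgeR). Ccnd3, a D-type cyclin, fell from 192, 199 and 168 CPM to 78.6, 68.7 and 78.1 CPM (log2 fold change -1.31 with SE 0.13, adjusted p = 0.0124 by edgeR). Ccne1, the cyclin partner of CDK2, fell from 79.7, 97.1 and 62.8 CPM to 32.1, 33.7 and 42.0 CPM (log2 fold change -1.15 with SE 0.20, adjusted p = 0.0278 by edgeR). The groups of Cdk2 and Ccnd3 lay far apart relative to their spread, and shControl A sat within the control range for Ccnd3 and Ccne1. The other D-type cyclins, Ccnd1 and Ccnd2, were not called, with Ccnd1 at -0.42 (adjusted p = 0.319), and neither were Cdk4 (-0.41) and Cdk6 (-0.17). For Ccnd1 and Cdk4 this rested on shControl A, without which both were called lower (edgeR adjusted p = 0.00169 and 0.00115). None of 4 CDK inhibitors was called, although 3 were lower and 1 higher without shControl A: Cdkn1a, which encodes p21, read 994, 522 and 619 CPM in the controls and 1065, 954 and 653 CPM in shElp3 cells, with overlapping groups, and Cdkn1b, which encodes p27, had -0.61 (adjusted p = 0.127). Of 15 E2F factors and late cell cycle transcription factors 1 was called, and it was higher: E2f1 rose from 33.6, 31.6 and 35.9 CPM to 58.0, 52.1 and 51.2 CPM (log2 fold change 0.67 with SE 0.13, adjusted p = 0.0375 by edgeR). Foxm1 and Mybl2, activators of mitotic genes, had log2 fold changes of -2.21 and -2.08 but adjusted p-values of 0.0521 and 0.0510, and without shControl A both were called lower, as were 9 of the list in all, with 1 higher (both were named after their values were seen).

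Histone genes of S phase carried some of the largest values. Of the 66 replication-dependent histone genes counted by the authors 35 were tested, 15 fell and all 35 tested values lay below 0 (median -1.85). Copies of these genes are nearly identical, so counts of a single copy are uncertain. Hist1h2be fell from 26.3, 43.9 and 33.2 CPM to 5.65, 6.08 and 3.65 CPM (log2 fold change -2.75 with SE 0.28, adjusted p = 0.0124 by edgeR), Hist1h3a fell from 10.6, 41.5 and 21.1 CPM to 2.89, 3.81 and 3.22 CPM (log2 fold change -2.88 with SE 0.48, adjusted p = 0.0266 by edgeR), and Hist1h4d fell from 196, 282 and 190.1 CPM to 82.2, 66.5 and 55.0 CPM (log2 fold change -1.71 with SE 0.22, adjusted p = 0.0156 by edgeR). Within letter A the median difference over the list was -0.30, against -2.08 within B and -2.04 within C. In 32 of the 35 shControl A was the lowest control, and without it 35 fell. The histone variants, which are made outside S phase as well, changed less, with 1 of 7 called, a median of -0.50 and 4 called lower without shControl A. The called variant H2afx, a replacement histone of the DNA damage response, read 54.2, 326 and 249 CPM in the controls and 27.1, 44.2 and 35.2 CPM in shElp3 cells (log2 fold change -2.56, SE 0.58, edgeR adjusted p = 0.0485).

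**Figure D3:**
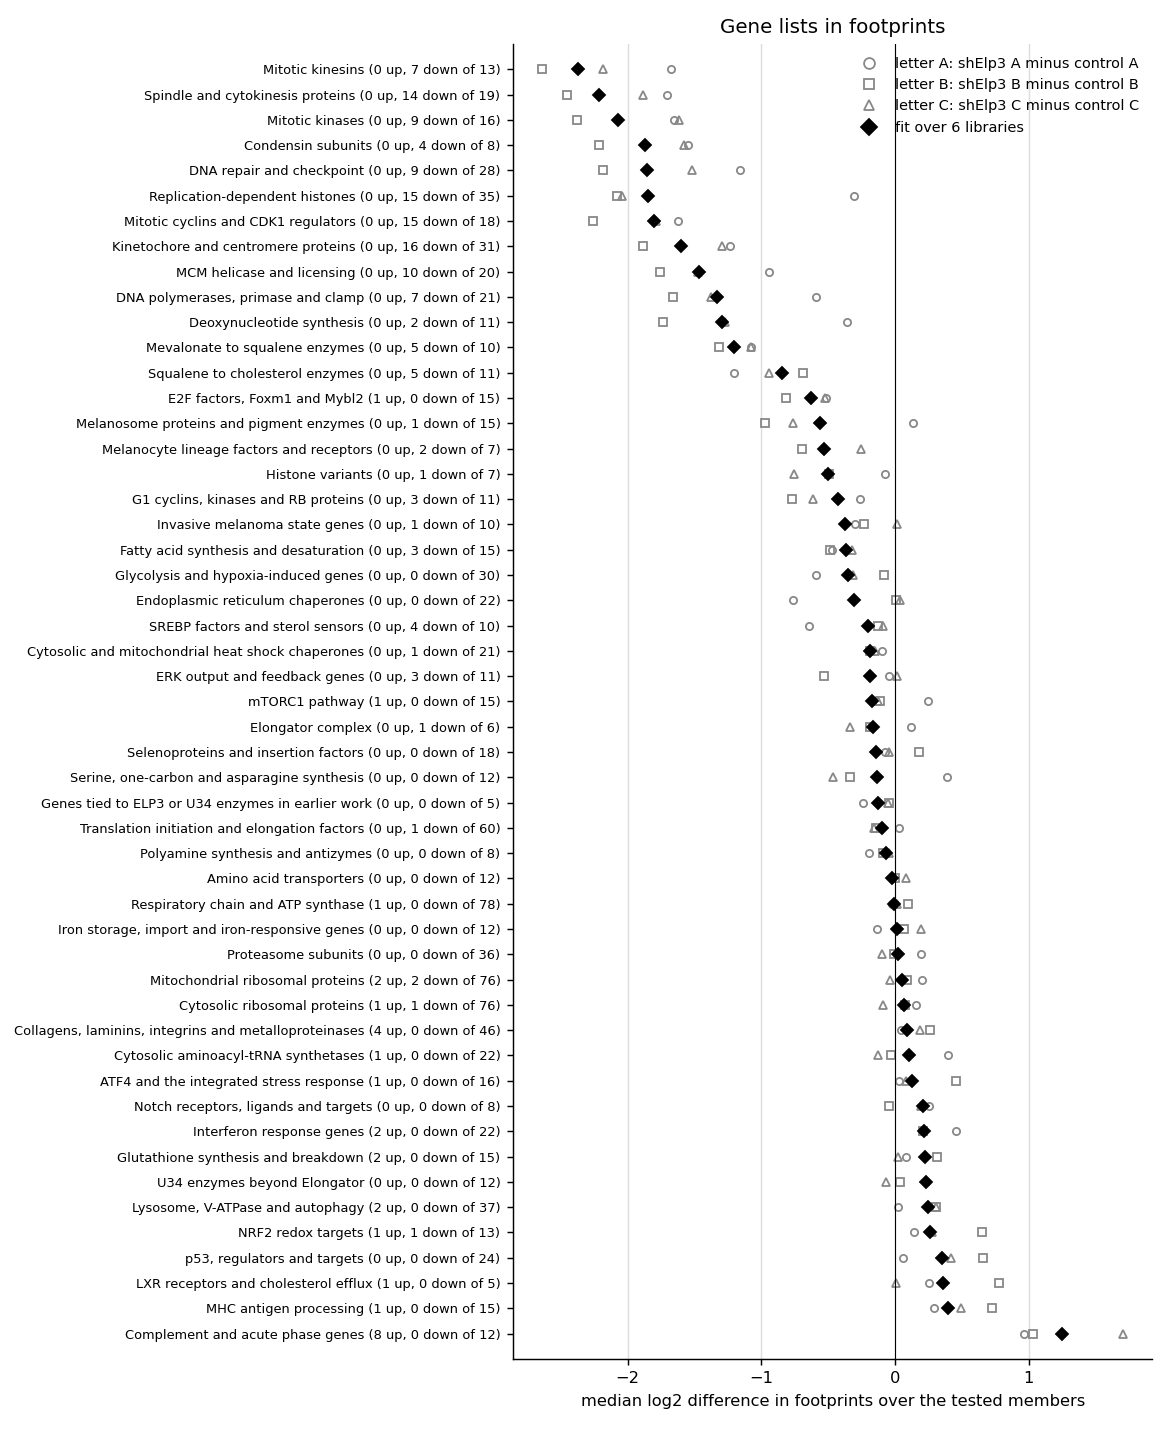
Median log2 fold change of footprints over the tested members of each of the 51 gene lists with at least 5 tested members (horizontal axis), one row per list, with black diamonds for the fit over 6 libraries, open symbols for the difference of each letter (circle A, square B, triangle C) and the vertical line at 0. The lists of cell division and cholesterol synthesis lie to the left, at medians down to -2.37, and the complement list lies furthest to the right, at 1.25.

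Cholesterol synthesis was the next group to fall. Cells make cholesterol from acetyl-CoA through mevalonate and squalene, and SREBP2, encoded by Srebf2, switches on the genes of the route when sterols run low. Of 21 enzymes tested 10 fell and 0 rose, with a median of -0.86 and 20 of 21 values below 0, where 3.06% of all genes were lower. Leaving out shControl A raised the number to 17, where 14.0% of all genes were lower. The number of enzymes called lower was 7 or 8 when shControl B or C was left out, and 0 when any 1 shElp3 library was. Srebf2 itself fell from 313, 292 and 294 CPM to 113, 118 and 119 CPM (log2 fold change -1.36 with SE 0.12, adjusted p = 0.0104 by edgeR). Insig1, a sterol sensor that is a target of SREBP2, fell from 165, 89.3 and 56.6 CPM to 18.4, 20.2 and 13.5 CPM (log2 fold change -2.57 with SE 0.39, adjusted p = 0.0219 by edgeR), and Stard4, a carrier of cholesterol between membranes, fell by 1.81. The related factor Srebf1 (-0.08, adjusted p = 0.860) and the escort protein Scap (0.15, 0.503) were not called. Of the 10 SREBP factors and sterol sensors tested 4 fell and 0 rose, both with all libraries and without shControl A.

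In the order of the route, Acat2, which joins the first acetyl units, had 6.72, 8.15 and 5.38 CPM in the controls and 3.64, 2.58 and 3.22 CPM in shElp3 cells and was not called (-1.10, adjusted p = 0.0655). Hmgcs1, which makes HMG-CoA, fell from 187, 229 and 163 CPM to 60.1, 66.5 and 62.8 CPM (log2 fold change -1.61 with SE 0.16, adjusted p = 0.0124 by edgeR). Mvk (-0.64, adjusted p = 0.242) and Pmvk (0.25, 0.387), the mevalonate kinases, were not called, and Pmvk was the single enzyme above 0. Mvd, which makes isopentenyl diphosphate, fell by 1.33, and Idi1, its isomerase, fell from 59.0, 60.4 and 48.3 CPM to 23.7, 26.2 and 17.9 CPM (log2 fold change -1.30 with SE 0.18, adjusted p = 0.0197 by edgeR). Fdps, which joins these units to farnesyl diphosphate, read 159, 309 and 267 CPM in the controls and 143, 159.7 and 115 CPM in shElp3 cells. Its groups overlapped through shControl A, its adjusted p was 0.106, and without that library it was 0.000562. Fdft1, which makes squalene, fell by 1.67.

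Past squalene, Sqle, the squalene epoxidase, fell from 212, 176 and 151 CPM to 49.3, 61.9 and 67.5 CPM (log2 fold change -1.59 with SE 0.18, adjusted p = 0.0124 by edgeR). Lss, which closes the sterol rings, missed the threshold with 38.9, 41.5 and 42.5 CPM in the control libraries and 26.4, 28.1 and 20.1 CPM in the shElp3 libraries (log2 fold change -0.72 with SE 0.17, adjusted p = 0.0501 by edgeR). Cyp51 and Msmo1, which strip methyl groups from the ring, fell (-1.37 and -2.08), the latter from 370.2, 246 and 184 CPM to 61.2, 59.3 and 68.7 CPM. In Msmo1 shControl A was the highest control, the reverse of its place in most division genes. Dhcr7, a reductase at the end of the route, fell from 352, 251 and 216 CPM to 153, 156 and 141 CPM (log2 fold change -0.86 with SE 0.19, adjusted p = 0.0453 by edgeR). Sqle, Cyp51, Msmo1 and Dhcr7 all had groups that did not overlap.

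**Figure D4:**
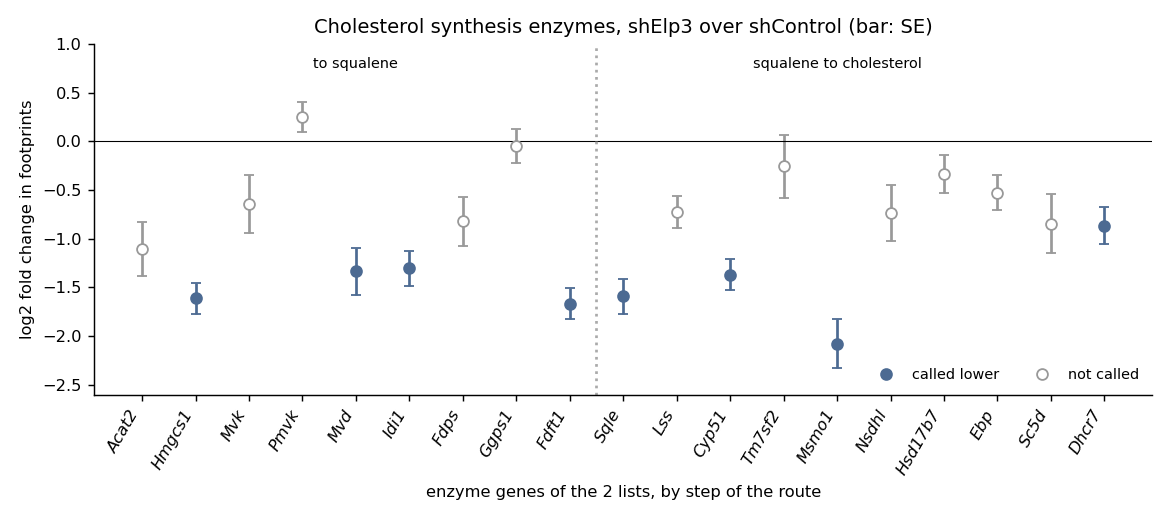
Log2 fold change of footprints, shElp3 over shControl (vertical axis), for 19 of the 21 tested enzymes from acetyl-CoA to cholesterol in the order of the route from left to right, with bars of 1 SE on either side and filled points for the 8 of them that were called. Values run from -2.08 for Msmo1 to 0.25 for Pmvk.

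Promoters of this route are known for sterol elements beside CCAAT boxes. The 4 shown were picked as examples, so the motifs in them are not a result. They are read 5′ to 3′ on the gene's strand from GRCm38.p6. The windows shown for Idi1 and Msmo1 hold CCAAT letters but no sterol letters. Capitals mark CCAAT or ATTGG and the sterol element (TCACCCCAC, TCACCCCAT or TCACGCCAC, or their complements). The windows are the last 180 bases before the start of Srebf2 (chr15:82147089-82147268, plus strand) and Hmgcs1 (chr13:119690171-119690350, plus strand), and the last 120 before that of Idi1 (chr13:8885486-8885605, plus strand) and Msmo1 (chr8:64733579-64733698, minus strand).
Srebf2: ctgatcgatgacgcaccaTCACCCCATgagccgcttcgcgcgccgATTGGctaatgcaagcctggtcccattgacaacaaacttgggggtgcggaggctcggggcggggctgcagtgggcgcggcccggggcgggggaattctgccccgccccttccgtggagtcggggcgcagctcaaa
Hmgcs1: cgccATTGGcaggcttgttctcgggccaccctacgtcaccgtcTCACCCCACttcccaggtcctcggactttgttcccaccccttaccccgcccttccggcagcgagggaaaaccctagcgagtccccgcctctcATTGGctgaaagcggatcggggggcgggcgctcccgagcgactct
Idi1: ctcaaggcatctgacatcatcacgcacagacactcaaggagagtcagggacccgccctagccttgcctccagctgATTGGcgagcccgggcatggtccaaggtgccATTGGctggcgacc
Msmo1: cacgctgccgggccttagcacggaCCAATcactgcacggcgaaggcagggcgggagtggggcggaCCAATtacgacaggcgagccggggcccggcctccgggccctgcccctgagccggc
The sterol letters start 162 bases before the start of Srebf2 and 137 before that of Hmgcs1, and were found in 1.07% of all promoters of tested genes, in 0.722% of those called lower and in 1 of the 16 enzymes with a window, which is Hmgcs1. CCAAT letters occurred in the 250 bases before the start of 15 of the same 16 enzymes (93.8%), and in at least 2 places in 62.5% of them, against 41.3% and 15.9% of all. Lists with 0 called genes varied in these shares. Endoplasmic reticulum chaperones had 83.3% and 66.7%, and glycolysis and hypoxia genes had 37% and 14.8%.

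Neighbouring lipid routes changed in part. Of 15 genes of fatty acid synthesis and desaturation 3 fell (median -0.37), where 3.06% of all genes were lower and 1.77% higher. Without shControl A 9 were lower and 2 higher, where 14.0% and 10.7% of all genes were. Fasn, the fatty acid synthase, fell from 489, 539.9 and 487 CPM to 263, 270.1 and 215 CPM (log2 fold change -1.02 with SE 0.14, adjusted p = 0.0166 by edgeR). Scd1, the desaturase, and Acsl3, which activates fatty acids, fell (-0.90 and -0.78), while Acly (-0.24, adjusted p = 0.371), which supplies acetyl-CoA, was not called. In the opposite direction, Abca1, the pump that exports cholesterol and a target of the oxysterol receptors LXR, rose from 77.6, 61.4 and 84.4 CPM to 152, 159 and 197 CPM (log2 fold change 1.19 with SE 0.17, adjusted p = 0.0197 by edgeR). It was the 1 called gene of 5 in the LXR list, where Pltp, a phospholipid transfer protein, had 0.68 (adjusted p = 0.109), and 2 were higher without shControl A.

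Among genes of the melanocyte lineage the result depended on shControl A. Of 15 melanosome and pigment genes 1 fell (median -0.56), which was Pmel, the fibril protein of the melanosome, from 2268, 5768 and 4629 CPM to 864, 1305 and 1442 CPM (log2 fold change -1.81 with SE 0.35, adjusted p = 0.0364 by edgeR). That is 6.67% of the list, against 4.83% of all genes. Without shControl A 9 fell, against 14.0% of all genes, and the median over the list was 0.13 for the libraries of letter A, -0.97 for B and -0.76 for C. The abundant pigment enzymes Dct and Tyrp1 had log2 fold changes of -1.12 (adjusted p = 0.0803) and -0.16 (0.822). Mlana read 115, 793 and 605 CPM in the controls and 229.9, 191 and 280.4 CPM in shElp3 cells, so that shControl A was the lowest of the 6 (a gene named after its values were seen), and its adjusted p changed from 0.292 to 0.000139 without it. Of 7 lineage factors and receptors 2 fell: Tfap2a, from 48.5, 68.1 and 66.8 CPM to 22.8, 25.2 and 29.2 CPM (log2 fold change -1.25 with SE 0.18, adjusted p = 0.0200 by edgeR), and Pax3, from 159.8, 144 and 128 CPM to 90.0, 88.7 and 83.8 CPM (log2 fold change -0.72 with SE 0.13, adjusted p = 0.0345 by edgeR). Sox10 was not called (-0.53, adjusted p = 0.0744). Of 10 genes of the invasive melanoma state 1 fell, the hyaluronan receptor Cd44 (-0.63), and 0 rose. Of 11 genes that report ERK signalling 3 fell, among them Dusp4, a phosphatase of ERK, from 93.1, 82.3 and 72.4 CPM to 32.5, 32.5 and 27.1 CPM (log2 fold change -1.43 with SE 0.16, adjusted p = 0.0124 by edgeR), and Phlda1 (-0.87), whereas Dusp6 (0.15) and Ier3 (0.16), other genes of the list, were not called. These counts stand beside 3.06% of all genes lower and 1.77% higher. Without shControl A 4 lineage factors, 2 genes of the invasive state and 3 of the ERK list were lower, and 1 of the invasive state was higher. In that fit 14.0% of all genes were lower and 10.7% higher, so the counts of the invasive list lay near those shares.

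Among the lists with at least 5 tested members, complement and acute phase genes had the highest share called higher. Of 12 complement and acute phase genes 8 rose and 0 fell, with a median of 1.25, where 1.77% of all genes were higher. C4b, a complement component, rose from 4.62, 2.98 and 6.47 CPM to 28.2, 26.3 and 28.4 CPM (log2 fold change 2.55 with SE 0.28, adjusted p = 0.0124 by edgeR). C3, the central component of the cascade, rose from 19.2, 15.9 and 9.47 CPM to 51.2, 33.3 and 47.2 CPM (log2 fold change 1.57 with SE 0.28, adjusted p = 0.0324 by edgeR), and Cd59a, which protects cells from the final complex, rose from 67.4, 50.6 and 51.2 CPM to 94.4, 100.4 and 127 CPM (log2 fold change 0.93 with SE 0.18, adjusted p = 0.0367 by edgeR). The copper carrier Cp was abundant and rose from 984, 822 and 714 CPM to 2592, 1878 and 4067 CPM (log2 fold change 1.76 with SE 0.28, adjusted p = 0.0251 by edgeR). The acute phase genes Lcn2, Saa3 and Lbp rose by 2.30, 1.96 and 1.74 from low levels of 1.46 ± 0.678, 1.99 ± 0.493 and 5.49 ± 0.951 CPM (mean ± SD, n = 3). C1rl completed the 8 with 0.58, and it and Saa3 were named after their values were seen. All groups of these 8 were apart, and without shControl A 9 members of the list were called higher and 1 lower, the complement protease C2 (-0.47 and an edgeR adjusted p of 0.103 with all libraries, 0.0360 without that one). Of 15 genes of antigen processing 1 rose (median 0.40), Cd74, the chaperone of class II molecules, from 231, 57.9 and 138 CPM to 649, 529 and 692 CPM (log2 fold change 2.13 with SE 0.43, adjusted p = 0.0394 by edgeR). Its class II partner H2-Eb1 read 6.30, 0.298 and 1.91 CPM in the controls and 16.4, 21.2 and 10.3 CPM in shElp3 cells and was not called (log2 fold change 2.57, edgeR adjusted p = 0.0931; named after its value was seen). Of 22 interferon response genes 2 rose, Ifi35 (1.03) and Ifi27 (0.77). These 2 shares, 6.67% and 9.09%, stand beside 4.83% of all genes. Without shControl A 9 genes of antigen processing were higher, and 5 interferon response genes were higher and 1 lower.

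Of 46 collagens, laminins, integrins and metalloproteinases 4 rose and 0 fell, with a median of 0.09, against 1.77% of all genes higher. Without shControl A 13 were higher and 2 lower (median 0.32), where 10.7% and 14.0% of all genes were. Mmp15 and Mmp2, which cut matrix proteins, rose by 1.63 and 1.75, and Itga2, a collagen receptor subunit, rose from 12.3, 7.15 and 8.56 CPM to 17.9, 21.0 and 21.7 CPM (log2 fold change 1.12 with SE 0.23, adjusted p = 0.0406 by edgeR). Col1a1, also a fibroblast marker, rose from 6.30, 6.06 and 5.01 CPM to 18.3, 13.0 and 17.3 CPM (log2 fold change 1.48 with SE 0.22, adjusted p = 0.0203 by edgeR). The other 3 fibroblast markers tested, Pdgfra, Pdgfrb and Postn, were not called, and the part of other cells in the Col1a1 value was not tested. Outside the lists, the largest increases (mean log2 CPM of 3 or more) included Sucnr1, the succinate receptor, from 7.0, 12.6 and 11.6 CPM to 46.2, 39.9 and 72.9 CPM (log2 fold change 2.34 with SE 0.30, adjusted p = 0.0163 by edgeR). Tenm4, a teneurin of the cell surface, rose from 9.24, 20.2 and 20.8 CPM to 48.8, 50.1 and 63.0 CPM (log2 fold change 1.68 with SE 0.29, adjusted p = 0.0290 by edgeR). Ano3, of the anoctamin family, rose from 41.7, 24.2 and 29.7 CPM to 70.2, 82.6 and 88.5 CPM (log2 fold change 1.34 with SE 0.22, adjusted p = 0.0251 by edgeR). Casp4, an inflammatory caspase, and Wsb1, a ubiquitin ligase adaptor, rose by 1.55 and 1.43. In each of these 5 the lowest shElp3 library lay above the highest control.

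No list of stress and metabolic genes held more than 2 called genes with all 6 libraries. The shares called were 15.4% for the redox list, 13.3% for glutathione genes, 6.25% for the integrated stress response and 5.41% for lysosome genes. These lay above the 4.83% of all genes, and the shares of the other lists in this paragraph lay below it. In the integrated stress response, through which ATF4 raises genes of amino acid supply, 1 of 16 genes rose and the median was 0.13: Chac1, a glutathione-degrading enzyme, rose from 15, 14.5 and 21.9 CPM to 46.7, 40.4 and 35.7 CPM (log2 fold change 1.25 with SE 0.21, adjusted p = 0.0254 by edgeR). Atf4 itself had 269.6, 208 and 209 CPM in the control libraries and 288, 304 and 202 CPM in the shElp3 libraries (log2 fold change 0.21 with SE 0.19, adjusted p = 0.551 by edgeR), with overlapping groups, and Trib3 missed the threshold at 0.71 (adjusted p = 0.0822). None of 12 genes of serine, one-carbon and asparagine synthesis and none of 12 amino acid transporters was called. In the list of glutathione synthesis and breakdown 2 of 15 genes rose, Ggt1 from 13.4, 4.97 and 10.8 CPM to 33.4, 33.3 and 32.7 CPM (log2 fold change 1.78 with SE 0.32, adjusted p = 0.0330 by edgeR) and the low Ggt5 (1.96). Among 13 redox genes Pgd, of the pentose phosphate route, rose by 0.72 and thioredoxin, Txn1, fell from 883, 699 and 712 CPM to 512, 468 and 478 CPM (log2 fold change -0.65 with SE 0.14, adjusted p = 0.0410 by edgeR). Of 24 genes of the p53 response 0 were called with all libraries (median 0.35), and 15 were called higher without shControl A, which was the highest control in 21 of the 24. Btg2, an antiproliferative target named after its values were seen, showed it: 31.9, 9.24 and 15.3 CPM in the controls, 66.8, 67.3 and 51.3 CPM in shElp3 cells, and an adjusted p of 0.0521 with and 7.87e-05 without that library. Of 22 endoplasmic reticulum chaperones 0 were called, and their median was -0.31 with all libraries and -0.02 without shControl A. Their median differences were -0.76, 0.01 and 0.04 within letters A, B and C. Hspa5, the chief chaperone of that compartment, read 9336, 3783 and 4002 CPM in the controls and 4551, 5137 and 4351 CPM in shElp3 cells. Of 21 heat shock chaperones 1 fell, Hsph1, from 116, 100.5 and 162 CPM to 49.5, 45.9 and 51.3 CPM (log2 fold change -1.37 with SE 0.19, adjusted p = 0.0197 by edgeR). Glycolysis and hypoxia genes (0 of 30 called, median -0.35), iron genes (0 of 12, 0.02), polyamine genes (0 of 8, -0.07) and proteasome subunits (0 of 36, 0.02) held no called gene, where all genes together had 4.83%. Notch genes likewise had 0 of 8 called (median 0.21). The respiratory chain had 1 of 78 called, Ndufa6, from 116, 98.7 and 107 CPM to 157, 173 and 162 CPM (log2 fold change 0.61 with SE 0.13, adjusted p = 0.0403 by edgeR), and lysosome genes had 2 of 37 called higher (median 0.25), the proton pump subunits Atp6v1d (0.66) and Atp6v0d1 (0.53). The counts of these lists were larger without shControl A, where 10.7% of all genes were higher and 14.0% lower. Lysosome genes had 17 higher and 1 lower, and the p53 list had 1 lower beside its 15 higher. In that fit the respiratory chain had 11 higher and 6 lower, the redox list 6 and 2, glutathione genes 6 and 1, and the integrated stress response 4 and 0. Serine, one-carbon and asparagine synthesis had 2 higher and 6 lower, amino acid transporters 1 and 3, endoplasmic reticulum chaperones 2 and 3, heat shock chaperones 2 and 5, and glycolysis and hypoxia genes 0 and 7. Iron genes had 2 higher and 2 lower, proteasome subunits 2 and 2, Notch genes 1 and 0, and polyamine genes 0 and 1.

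Few genes of the translation machinery were called with all 6 libraries, where 4.83% of all genes were. The shares of mitochondrial ribosomal proteins (5.26%), tRNA synthetases (4.55%) and the mTORC1 list (6.67%) lay near that of all genes. Of 76 cytosolic ribosomal proteins 2 were called, in opposite directions, and the median was 0.06: Rpl19 rose from 663, 728 and 836 CPM to 1228, 1335 and 1126 CPM (log2 fold change 0.73 with SE 0.14, adjusted p = 0.0367 by edgeR) and Rpl41 fell from 194, 214 and 189.7 CPM to 139.7, 112 and 114 CPM (log2 fold change -0.71 with SE 0.14, adjusted p = 0.0372 by edgeR). Of 76 mitochondrial ribosomal proteins Mrpl24 and Mrpl35 rose (0.96 and 0.81) and Mrpl18 and Mrpl50 fell (-0.88 and -0.68). Of 60 initiation and elongation factors 1 fell, the cap-binding protein Eif4e, from 204, 184 and 192 CPM to 137, 139 and 124 CPM (log2 fold change -0.53 with SE 0.12, adjusted p = 0.0491 by edgeR). Of 22 tRNA synthetases and their scaffolds 1 rose, Wars, which charges tryptophan, from 303, 292 and 379.8 CPM to 711, 541 and 549 CPM (log2 fold change 0.88 with SE 0.17, adjusted p = 0.0349 by edgeR). In the mTORC1 pathway 1 of 15 rose, Rptor (0.61), and of 18 selenoproteins and their factors 0 were called. None of 12 enzymes that act beside or after Elongator on the wobble uridine was called (median 0.23). Urm1, the sulfur carrier of this route, read 8.82, 9.04 and 10.1 CPM in the controls and 8.66, 229.7 and 9.55 CPM in shElp3 cells, so that its log2 fold change of 3.15 (adjusted p = 0.170) rested on shElp3 B. Among genes tied to ELP3 or wobble uridine enzymes in earlier work 0 of 5 were called, with Dek at -0.68, Hif1a at -0.19, Ldha at -0.13, Sox9 at -0.09 and Atf4 at 0.21. Without shControl A 10.7% of all genes were higher and 14.0% lower. In that fit the cytosolic ribosomal proteins had 5 higher and 4 lower, the mitochondrial ones 10 and 2, the initiation and elongation factors 2 and 10, and the synthetases 2 and 5. The mTORC1 list had 2 and 2, the selenoprotein list 2 and 0, the wobble uridine enzymes 0 and 0, and the genes of earlier work 0 and 1.

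A footprint count also rises when RNA that is not being translated is carried along. Of the 548 called genes 10 are not protein coding, 7 higher and 3 lower, and for these the count says nothing of translation. Neat1, the nuclear scaffold RNA of paraspeckles, rose from 4.48, 5.56 and 3.10 CPM to 17.7, 12.8 and 22.7 CPM (log2 fold change 2.02 with SE 0.31, adjusted p = 0.0223 by edgeR). Rmrp, the RNA of a ribonuclease that works on ribosomal RNA precursors, rose from 3469, 3433 and 2029 CPM to 6546, 12440 and 6273 CPM (log2 fold change 1.5 with SE 0.33, adjusted p = 0.0440 by edgeR). Small nucleolar RNAs were not called (0 of 36, median -0.46).

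The total RNA libraries tied by label to these footprint libraries show how far these differences lie in mRNA abundance. In total RNA 140 of 12274 genes (1.14%) were called. Of the 201 genes called higher in footprints 194 were tested in RNA, with a median RNA log2 fold change of 0.89, and of the 347 called lower all 347 were, with a median of -1.21. The sign was the same in both for 536 of 541 genes, and the same share over all tested genes was not computed. Fewer were called in RNA itself in the same direction, 16 of the 194 and 88 of the 347. Each footprint library is tied by its label to 1 RNA library, so the fractions may not be independent. The difference between the 2 changes was tested as an interaction of fraction and hairpin over 12 libraries. This test called 0 of 11238 genes (0.00%) in edgeR, with 62 at an unadjusted p under 0.05. With limma voom and quality weights it called 0, with 517 at an unadjusted p under 0.05. Both are smaller than the share of 0.05 that p-values without any difference would give, and the edgeR count is far smaller. The test can therefore miss differences, and 0 calls do not show that the 2 changes were equal. In single genes named above the values lay close: Cdk2 had -2.02 in footprints and -1.94 in RNA, Cks2 -1.77 and -2.18, Ccnd3 -1.31 and -1.51, Srebf2 -1.36 and -1.25, Hmgcs1 -1.61 and -1.47, and Abca1 1.19 and 1.34. Of the 21 cholesterol enzymes the median RNA values were -1.07 up to squalene and -0.71 past it. The replication-dependent histones differed more, with a median of -1.85 in footprints and -1.21 in RNA (median interaction -0.64).

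**Figure D5:**
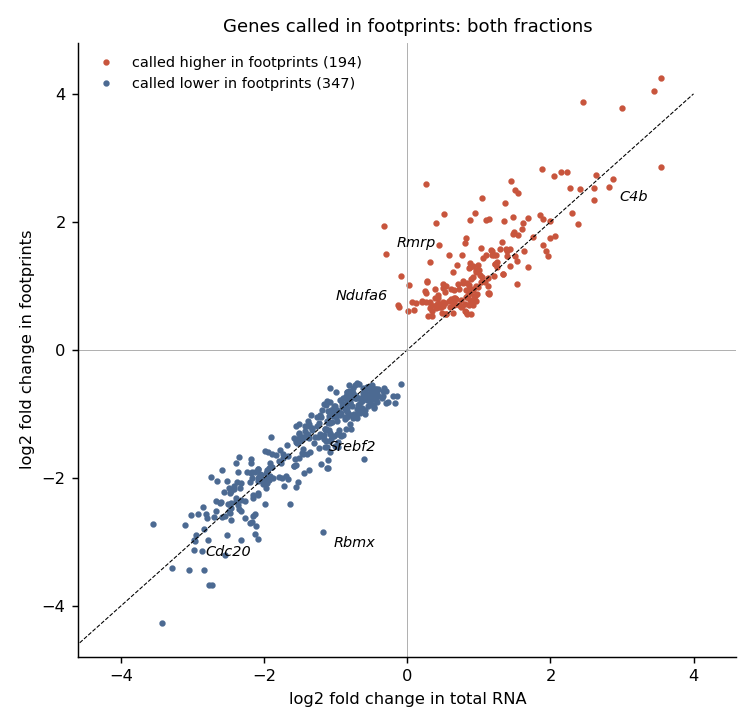
Log2 fold change in footprints (vertical axis) against that in total RNA (horizontal axis) for the genes called in footprints and tested in both, with those called higher in red, those called lower in blue and the dashed diagonal marking equal change. Of 541 called genes 536 lie on the same side of 0 in both, and the other 5 are called higher in footprints with a small negative RNA value.

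A few genes lay off the diagonal, without passing the adjusted interaction test. Rbmx, a nuclear RNA-binding protein, fell from 26.5, 53.2 and 45.6 CPM to 6.40, 7.0 and 3.97 CPM (log2 fold change -2.85 with SE 0.32, adjusted p = 0.0124 by edgeR), with -1.18 in RNA (edgeR interaction -1.71, unadjusted p = 0.00186, adjusted p = 0.9999). Hist1h4d had -1.71 in footprints and -0.60 in RNA (edgeR interaction -1.16, unadjusted p = 0.0159, adjusted p = 0.9999). The 5 genes with opposite signs were E2f1 (-0.12 in RNA), Rmrp (-0.30), Zfp37 (1.15 and -0.09), Lrrc17 and Cir1. The last 3, named after their values were seen, had unadjusted edgeR interaction p-values of 0.00398, 0.00380 and 0.0301. Lrrc17 rose in footprints from 3.50, 1.99 and 2.19 CPM to 6.15, 10.2 and 12.7 CPM (log2 fold change 1.94 with SE 0.36, adjusted p = 0.0331 by edgeR), against -0.33 in RNA. Its adjusted interaction p was 0.9999 over the 11238 genes tested.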

How the data were processed

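The deposited table holds whole-number read counts per gene symbol, not normalized, for 6 footprint and 6 total RNA libraries prepared with Illumina's TruSeq Ribo Profile kit, per the labels. Per the submitters' processing notes, the build was mm10 and the tools were TopHat2 2.1.1, Bowtie, HTSeq and bcl2fastq. Not given in the sources used here are the annotation, the use of strand, the treatment of ribosomal RNA and the regions counted (exons or coding sequence). Antisense, overlapping and near-identical genes may therefore share counts, which can move a single gene's value.

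Genes were kept with filterByExpr (minimum count 10), libraries scaled by TMM, and groups taken from the labels compared by the quasi-likelihood test of edgeR 4.0.16 in R 4.3.3. The p-values were adjusted over all genes in the fit by Benjamini-Hochberg, and an adjusted p under 0.05 was called. The SE is the size of the log2 fold change divided by the root of F. CPM is not scaled by gene length, so levels are not compared between genes. The functions were tested on simulated counts. Alternatives were DESeq2 1.42.0, limma 3.58.1 (voom with quality weights), other scaling, other filters, a replicate block and leaving out each library. The 56 gene lists and the members were chosen with earlier results of these data known. The genes named are Elp3, the 20 largest increases and 20 largest decreases at a mean log2 CPM of 3 or more with groups apart, the 10 smallest adjusted p, and members of the lists (up to 6 called by adjusted p and 3 others by abundance, or all of lists with 12 or fewer); the text gives a selection, some of the genes it picks are not reported here, and genes outside the rule are said to be named after their values were seen. Promoters are from RefSeq on GRCm38.p6; amino acid composition was not analysed here.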

Additional observations from a re-analysis of the deposited data

How the results depend on the processing

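The number of genes called in footprints stayed within 1.5 times of 548 with DESeq2 size factors or upper-quartile scaling in edgeR, with minimum counts of 5 or 30 or no count filter, with protein-coding genes only, without the 20 most abundant genes and in the joint fit of 12 libraries (391 to 764). The genes themselves changed more: the joint fit kept 331 of the 548 in the same direction, upper-quartile scaling 471, and the other settings just listed 499 to 547. The number called was 1308 with DESeq2, 3575 with limma voom and quality weights, 2477 with letters B and C only, and between 0 and 2856 without 1 library. The Elp3 change kept its direction throughout, and without 1 library its log2 fold change ran from -1.005 to -0.845. The interaction count was 2 with letters B and C only and 0 in every other fit. The libraries were not treated as paired by letter, since nothing in the labels says that a letter marks a shared batch. Correlations of same-letter deviations were 0.328, -0.107 and 0.215 for A, B and C, and that of shControl B with shElp3 C was 0.379, so they do not settle it. The 2 hairpins had similar totals within letter A, 7625279 and 7619269 in footprints and 16510699 and 16527864 in total RNA. Totals of B and C ran from 9254396 to 10998570 and from 7914369 to 11934000. Whether letters mark pairs was not tested. With the replicate block 666 genes were called, 467 of the 548 in the same direction among them, Elp3 had a log2 fold change of -0.93, and 0 interactions were called. None of the 136 called genes with values in the text changed sign in any fit. Of those not called, Dusp6 turned negative with voom (-0.19) and letters B and C (-0.043) and ran from -0.17 to 0.35 without 1 library. Hspa5 turned positive with voom (0.26) and letters B and C (0.28) and ran from -0.51 to 0.25, and Sox9 did so too (0.19 and 0.25, range -0.25 to 0.21). Without 1 library Srebf1 ran from -0.32 to 0.076, Tyrp1 from -0.47 to 0.092 and Urm1 from -0.032 to 3.68. The cause of these changes was not tested. Depth limits the genes at a few CPM, where a library holds few reads, and the fits without 1 library have 2 libraries in an arm.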

Other observations

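Several gene families outside the lists above held called members. They were chosen after the values were seen, so the counts describe these libraries only, and they stand beside 1.77% of all genes called higher and 3.06% lower with all libraries, and 10.7% and 14.0% without shControl A. Splicing was one: of 32 SR proteins and hnRNP proteins 4 fell and 0 rose (median -0.36), with Tra2a, a splicing activator, falling from 90.9, 112 and 69.8 CPM to 34.3, 25.9 and 35.0 CPM (log2 fold change -1.52 with SE 0.21, adjusted p = 0.0197 by edgeR). Srsf7, Hnrnpa2b1 and Hnrnph1 fell (-1.25, -1.01 and -0.76), and without shControl A 21 of the family fell, with median differences of 0.22, -0.65 and -0.44 within letters A, B and C. Among 46 Sm, LSm and other spliceosome proteins 7 fell, such as the branch point protein Sf3b1, from 499, 684 and 503 CPM to 238, 282 and 288 CPM (log2 fold change -1.06 with SE 0.17, adjusted p = 0.0242 by edgeR), and the U6 partners Lsm3 (-1.24) and Lsm5 (-1.16). Of 19 nucleoporins 5 fell (median -0.53), Nup107, a subunit of the pore scaffold, the most, from 41.9, 73.8 and 65.5 CPM to 19.6, 25.6 and 27.9 CPM (log2 fold change -1.31 with SE 0.24, adjusted p = 0.0330 by edgeR). In each of these genes the shElp3 libraries lay below every control. Of 5 genes of the Nr4a receptors and the circadian repressors Bhlhe40 and Bhlhe41 4 fell: Nr4a1 and Nr4a3, which respond quickly to signals, at -1.73 and -2.52, Bhlhe40 from 87.5, 59.8 and 56.2 CPM to 26.2, 26.5 and 16.8 CPM (log2 fold change -1.55 with SE 0.25, adjusted p = 0.0246 by edgeR), and Bhlhe41 at -1.44.

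Other families held members that were called higher. Of 29 genes of intraflagellar transport and the BBSome, which build the primary cilium, 4 rose and 0 fell (median 0.41): Kif3a, a motor subunit, rose from 144, 139.9 and 160.2 CPM to 218, 295 and 238 CPM (log2 fold change 0.76 with SE 0.15, adjusted p = 0.0381 by edgeR), and Ift20, Tctn2 and Lztfl1 rose by 0.81, 0.81 and 0.80. Of 15 retinoid enzymes and receptors 4 rose, with Dhrs3, which reduces retinal, from 172, 79.6 and 110.2 CPM to 349.8, 257 and 397 CPM (log2 fold change 1.48 with SE 0.29, adjusted p = 0.0374 by edgeR), Retsat by 0.87, and Aldh1a1 and Aldh1a3, which make retinoic acid, by 2.37 and 1.37. Aldh1a1 and Aldh1a3 rose from low control levels, 1.26, 1.39 and 0.82 CPM and 2.38, 2.78 and 2.46 CPM. The family had 8 values above 0 and 7 below. Of 7 diacylglycerol kinases 3 rose, Dgka from 20.6, 10.1 and 15.8 CPM to 52.0, 47.1 and 40.0 CPM (log2 fold change 1.58 with SE 0.26, adjusted p = 0.0251 by edgeR), Dgki by 1.05 and Dgkq by 1.07, while the family median was 0.03. In fatty acid breakdown 3 of 24 rose, among them the very long chain dehydrogenase Acadvl, from 102, 84.3 and 105 CPM to 219, 213 and 155 CPM (log2 fold change 1.02 with SE 0.17, adjusted p = 0.0276 by edgeR). In iron-sulfur cluster assembly 3 of 19 rose, Iscu, Hscb and Nfu1 (0.86, 0.88 and 0.65), and the ferredoxin Fdx1 fell (-0.72), with a median of 0.06. Zinc finger genes of the Zfp series had 3 of 287 higher and 2 lower, below the 4.83% of all genes. Without shControl A the spliceosome proteins had 15 lower, the nucleoporins 13 and the Nr4a and Bhlhe genes 4. The transport and BBSome genes had 7 higher, the diacylglycerol kinases 3, the retinoid genes 5 with 1 lower, fatty acid breakdown 9 with 1 lower, iron-sulfur assembly 3 with 2 lower, and the Zfp series 17 with 12 lower.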
